A study of Mus musculus with 4 samples.

Results

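The genes described here encode subunits of the Polycomb repressive complexes PRC1 and PRC2. They were chosen by name and not by a cut on their values, but with earlier results of these data known. They are Bmi1, Pcgf2, Pcgf6, Ring1, Rnf2 and Cbx2 of PRC1, and Ezh1, Ezh2, Eed and Suz12 of PRC2. These are 10 of the 26041 gene symbols counted in single cells of the mouse testis, and each had unique molecular identifiers (UMIs, tags that count captured transcripts) in every library.

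Testis cells that glowed with tdTOMATO were collected by flow sorting at 4 wk of age. The mice are labelled as B6N.Cg-Eomes with the allele tm1.1(icre/ERT2)Reb, with littermates lacking the reporter setting the gate. All groups carried the knock-in that reports Eomes, so cells without tdTOMATO were not sampled by design, and the labels name no animals or treatment. Eomes itself had a UMI in 85 of 897 Plzf +/+ cells (9.48%) and in 4 of 352 Plzf lu/lu cells (1.14%), so the cells are defined by the reporter and not by a detected Eomes transcript. Plzf +/+ cells came from plates 1 and 2 and part of plate 4 (317, 303 and 277 cells), and cells homozygous for the luxoid mutation of Plzf (Plzf lu/lu) from plate 3 and part of plate 4 (314 and 38 cells). Plate 4 is labelled as a mixed plate, and the genotype of its cells was taken from the count table that lists each of them. By well, 5 of its Plzf +/+ cells and 0 of its Plzf lu/lu cells fell outside the wells that the labels give their genotype, and the genotype comparison was also made without them. These 5 libraries held 254514 to 2608702 UMIs, the fewest in Plzf lu/lu of plate 4. Outside plate 4, plate and genotype cannot be told apart, and p-values measure only the spread between these libraries. The plates used the same set of well barcodes, of which 358 of 376 occurred in 2 or more libraries.

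Plzf is listed under its symbol Zbtb16. In UMIs per 1000000 UMIs of the library (CPM, scaled between libraries by the TMM method), Zbtb16 was at 76.7, 51.8 and 72.3 CPM in Plzf +/+ (plates 1, 2 and 4, the order kept for all values) and at 18.3 and 12.1 CPM in Plzf lu/lu (plates 3 and 4). It was lower in Plzf lu/lu, in the direction of the labels, with a log2 fold change of -1.97 (SE 0.30; edgeR quasi-likelihood test, adjusted p = 0.0319). The value was negative under all alternatives and the call held without Plzf +/+ plate 1, but it ended on leaving out any other library (-2.48 to -1.87, edgeR adjusted p from 0.0984 to 0.346) and among Gfra1 cells (-1.75, adjusted p = 0.155). The germ cell gene Dazl had a UMI in 1158 of 1249 cells (92.7%). Sertoli cell genes were present too: 111 cells carried at least 3 genes of the Sertoli list, and 10 at least 3 genes of the T and NK cell list. These somatic-marker cells made up 4.10%, 9.24% and 6.5% of Plzf +/+ cells but 17.5% and 18.4% of Plzf lu/lu cells, so they moved with the genotype. Of all 121, 85 (70.2%) also had a Dazl UMI. The 8 Sertoli genes, none at 0 in all libraries, summed to 431 to 531 CPM in Plzf +/+ and to 668 and 1007 CPM in Plzf lu/lu (sums over marker lists are given without TMM scaling).

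Polycomb complexes keep developmental genes silent. PRC2 places methyl groups on histone H3 through EZH1 or EZH2, which act in a core with EED and SUZ12. PRC1 places ubiquitin on histone H2A through RING1 or RNF2, paired with a PCGF protein that sets the kind of PRC1: BMI1 (PCGF4) or PCGF2 (MEL18) in canonical complexes, where CBX proteins such as CBX2 read the mark of PRC2, and PCGF6 in a variant complex that holds germ cell genes silent in embryonic stem cells. In the testis Bmi1 has been used to mark spermatogonial stem cells, and PLZF is known to bind BMI1 and to bring Polycomb complexes to Hox genes in other tissues.

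Most of the subunits were expressed at a moderate level in both genotypes, and Cbx2, Pcgf2 and Ring1 were rare. Only the 3′ end of a transcript was counted, so levels were compared in CPM without division by gene length. Over the 5 libraries, Eed averaged 106 ± 10.5 CPM (SD, n = 5), Bmi1 104 ± 13.9 CPM, Pcgf6 101 ± 38.4 CPM and Ezh2 93.1 ± 12.3 CPM. Rnf2 followed at 72.3 ± 22.7 CPM, Suz12 at 65.7 ± 12.3 CPM and Ezh1 at 57.6 ± 6.92 CPM. Cbx2 averaged 22.0 ± 5.24 CPM, Pcgf2 18.5 ± 11.1 CPM and Ring1 7.56 ± 2.94 CPM. Neighbours in this order differed by less than the larger of their SDs, except Ezh1 and Cbx2. Every library was higher for Ezh1 (48.1 to 66.6 CPM) than any library for Cbx2 (16.0 to 28.2 CPM).

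**Figure D1:**
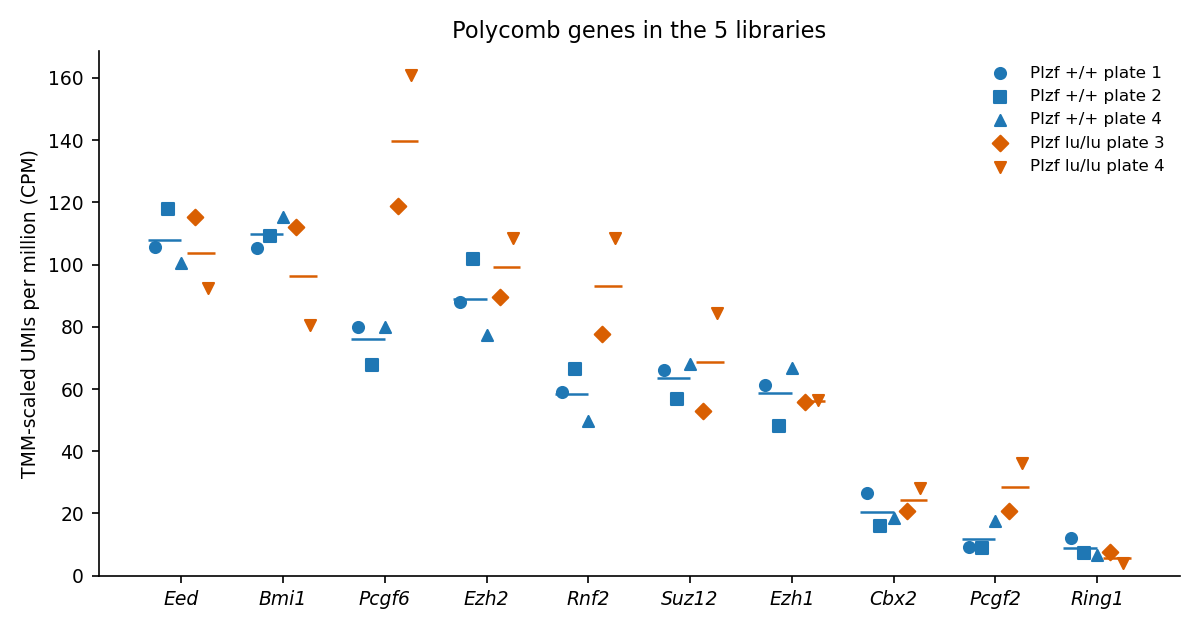
Levels of the 10 Polycomb genes in each library, as TMM-scaled CPM; each point is a library, and the short lines are the means of the 3 Plzf +/+ and the 2 Plzf lu/lu libraries. Both Plzf lu/lu points lie above all Plzf +/+ points for Pcgf6, Rnf2 and Pcgf2.

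Ratios of UMIs within a library do not depend on the scaling, and they show which of each pair of related genes was the more abundant. Bmi1 had 11.25, 12.1 and 6.62 UMIs for each UMI of Pcgf2 in Plzf +/+ but 5.40 and 2.22 in Plzf lu/lu. These ratios did not overlap between the genotypes, and the lowest rests on 20 and 9 UMIs. They were not tested, and such non-overlap was not counted over other pairs of genes. Among single genes in CPM, 18.5% were without overlap as higher in Plzf lu/lu and 16.0% as lower. Rnf2 had 4.85, 9.0 and 7.46 UMIs for each UMI of Ring1 in Plzf +/+ and 10.3 in Plzf lu/lu of plate 3, while plate 4 held 27 UMIs of Rnf2 and 1 of Ring1. Ezh2 exceeded Ezh1 in every library, by 1.44, 2.12 and 1.16 times in Plzf +/+ and by 1.61 and 1.93 times in Plzf lu/lu, where the genotypes overlapped.

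In single cells these transcripts were sparse, and detection rose with depth. Bmi1 had a UMI in 46.4%, 46.5% and 45.1% of Plzf +/+ cells and in 48.1% and 36.8% of Plzf lu/lu cells. The lowest share comes from 14 of 38 cells (exact Clopper-Pearson 95% interval 21.8% to 54.0%; such intervals cover counting error only). After thinning of each cell to 2000 UMIs, which 1167 of the 1249 cells reached, the shares were 19.9%, 18.8% and 23.9% in Plzf +/+ and 20.1% and 20.7% in Plzf lu/lu. The genotypes overlapped in both measures. At least 2 UMIs of Bmi1 were found in 240 cells (19.2%). By depth, Bmi1 went from 23.8% of the Plzf +/+ cells under 3000 UMIs to 82.9% of those at 12000 UMIs and over, and from 13.8% to 86.8% in Plzf lu/lu. Rnf2 was seen in 15.4%, 22.3% and 37.9% of Plzf +/+ cells under 3000, from 3000 to 6000 and from 6000 to 12000 UMIs, and in 19.0%, 25.4% and 37.5% of Plzf lu/lu cells, with intervals that overlapped in each range. In the deepest cells it was seen in 49.5% of Plzf +/+ cells (39.6% to 59.5%) and in 80.9% of Plzf lu/lu cells (69.5% to 89.4%), which did not overlap. Somatic-marker cells were 25 of the 105 and 19 of the 68 deepest cells, and without them the shares were 43.8% (32.7% to 55.3%) and 85.7% (72.8% to 94.1%). These intervals cover only the counting error of cells pooled by genotype, and the deepest range has no upper limit, so depth is not matched in it. For each other member the intervals of all cells overlapped in that range. After thinning to 2000 UMIs, Rnf2 was seen in 9.77%, 14.9% and 8.76% of Plzf +/+ cells and in 12.2% and 20.7% of Plzf lu/lu cells, which overlapped.

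**Figure D2:**
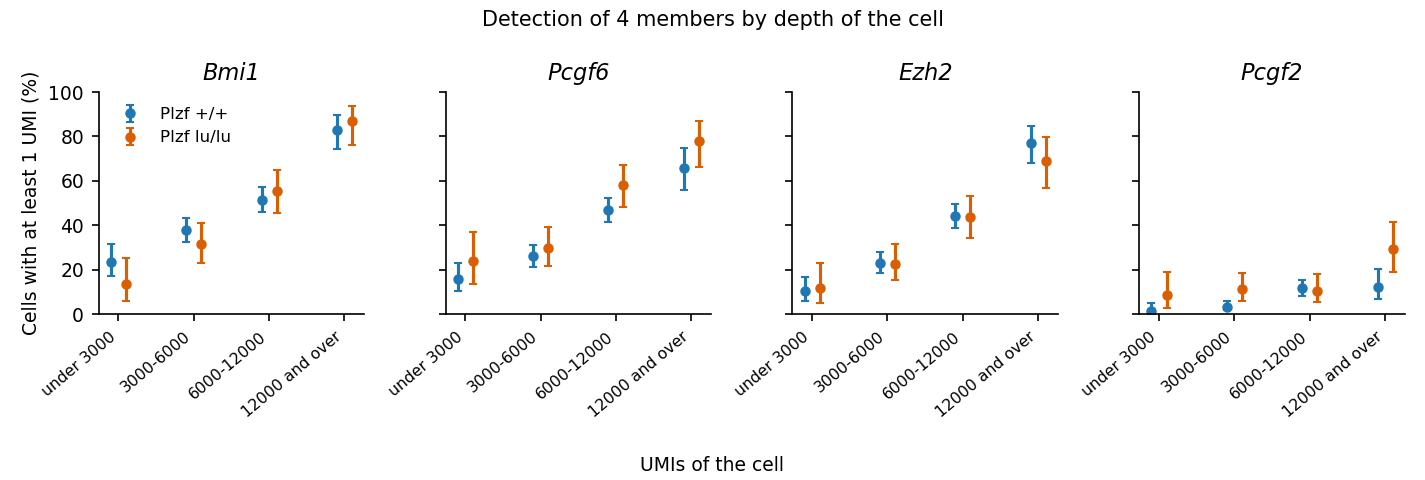
Share of cells with at least 1 UMI of Bmi1, Pcgf6, Ezh2 or Pcgf2 (vertical axis, percent) in 4 ranges of UMIs per cell (horizontal axis), for both genotypes; bars are exact 95% intervals. All shares are highest in the deepest cells, and for Pcgf2 the share is 12.4% in Plzf +/+ and 29.4% in Plzf lu/lu at 12000 UMIs and over, but 11.6% and 10.7% from 6000 to 12000 UMIs.

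Over all cells, Eed was seen in 47.5%, Bmi1 in 46.3%, Pcgf6 in 39.8%, Ezh2 in 35.6%, Rnf2 in 32.7%, Suz12 in 31.3% and Ezh1 in 31.1%. Cbx2 was seen in 12.6%, Pcgf2 in 9.21% and Ring1 in 5.28%. A cell type known to lack Polycomb genes was not at hand, so 36 somatic-marker cells without a Dazl UMI are given for comparison, with a median of 2502.5 UMIs against 5942 in all cells. Of the 36, 21 (58.3%) were rich in the meiotic gene Ldhc, against 12.4% of all cells, so they are not a set without germ cell transcripts. Bmi1 had a UMI in 10 of the 36 (27.8%; 14.2% to 45.2%) and Rnf2 in 12 (33.3%; 18.6% to 51.0%), but Pcgf6 in 2 (5.56%; 0.680% to 18.7%). Pcgf2 and Cbx2 were seen in 0 of these 36 (exact interval up to 9.74%), which limits the cells with a UMI at this low depth and not the cells that express the genes.

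Transcripts of a whole complex were rarely caught in the same cell. Ezh1 or Ezh2 was seen with both Eed and Suz12 in 174 cells (13.9%), at the same 13.9% in both genotypes. A UMI of Bmi1, Pcgf2 or Pcgf6 was seen with one of Ring1 or Rnf2 in 26.8%, 26.1% and 23.1% of Plzf +/+ cells but in 33.4% and 44.7% of Plzf lu/lu cells, which did not overlap. In cells thinned to 2000 UMIs these shares were 3.58%, 3.26% and 4.78% against 4.61% and 6.90%, which did. Bmi1 and Pcgf6 were seen together in 271 cells (21.7%) and Bmi1 and Pcgf2 in 66 (5.28%). Cells averaged 2.91 of the 10 genes and 112 cells (8.97%) had none, but at 2000 UMIs the mean was 1.09 and the share with none 30.6%, so at this depth co-detection does not show which cells lack a complex. With 3 libraries against 2 an exact permutation test cannot go below p = 0.1, and no share was tested.

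The genotype comparison asks whether the Polycomb machinery of tdTOMATO+ cells differs when Plzf is mutated. UMIs were summed per library, and in such sums fewer cells of a type and less RNA per cell cannot be told apart. None of the 10 genes passed the test (edgeR quasi-likelihood test, adjusted p under 0.05), which 0.816% of the 13728 genes tested passed, and DESeq2 also called 0, with 1 member at an unadjusted p under 0.05. By edgeR, 3 of the 10 had an unadjusted p under 0.05, against 14.2% of all genes: Pcgf6, Rnf2 and Pcgf2, all with higher values in Plzf lu/lu. These 3 were also the members with both Plzf lu/lu libraries above all Plzf +/+ libraries, as in 18.5% of all genes. The opposite order was found for 0 members and for 16.0% of all genes. The median log2 fold change was 0.05 over the members and 0.00 over all genes.

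Bmi1, the PCGF subunit of canonical PRC1, was at 105, 109 and 115 CPM in Plzf +/+ and at 112 and 80.4 CPM in Plzf lu/lu. Plate 3 lies within the Plzf +/+ values and plate 4, with 20 UMIs, below them. The log2 fold change was -0.12 (SE 0.18; edgeR adjusted p = 0.999), and no alternative called Bmi1. It was at -0.47 (SE 0.23) without Plzf lu/lu plate 3, which leaves plate 4 alone, and at 0.02 (SE 0.18) without Plzf lu/lu plate 4.

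Pcgf6, the PCGF subunit of the variant complex, was at 80.0, 67.8 and 80.0 CPM in Plzf +/+ and at 119 and 161 CPM in Plzf lu/lu. Both mutant libraries were above all others, also within plate 4. The log2 fold change was 0.83 (SE 0.19, 1.78-fold), with an edgeR adjusted p of 0.0990. It was positive under all 13 alternatives and passed under 4. Without somatic-marker cells and Ldhc-rich cells (cells rich in a meiotic gene, described with their class) Pcgf6 was higher in Plzf lu/lu by 0.74 (SE 0.17; edgeR adjusted p = 0.00146). Other passes came on leaving out Plzf +/+ plate 1 (0.81, edgeR adjusted p = 0.0118), without cells of over 4 times the median depth (0.76, adjusted p = 0.0267) and without a filter on low counts (0.78, adjusted p = 0.0174). A Pcgf6 UMI was seen in 39.7%, 35.6% and 35.0% of Plzf +/+ cells and in 45.9% and 57.9% of Plzf lu/lu cells. At 2000 UMIs per cell the shares were 14.3%, 13.0% and 13.9% against 18.8% and 17.2%, again without overlap. The test on the summed UMIs of these thinned cells gave 0.55 (SE 0.26; edgeR adjusted p = 0.265), and DESeq2 on all cells gave 0.81 (adjusted p = 0.296).

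Pcgf2, the close relative of Bmi1, was rare, at 9.36, 9.04 and 17.4 CPM in Plzf +/+ and at 20.7 and 36.2 CPM in Plzf lu/lu. Both mutant libraries were higher, on 20, 22 and 34 UMIs against 52 and 9. The log2 fold change was 1.08 (SE 0.44; edgeR adjusted p = 0.317). It was positive under all 13 alternatives and passed under 1. That was the comparison without somatic-marker and Ldhc-rich cells, at 1.26 (SE 0.34; edgeR adjusted p = 0.00868). The values ran from 0.80 without Plzf lu/lu plate 4 to 2.04 in cells thinned to 2000 UMIs (edgeR adjusted p = 0.108), with 1.59 without Plzf lu/lu plate 3. Without somatic-marker and Ldhc-rich cells 2 of the 10 members, Pcgf6 and Pcgf2, passed as higher, against 7.82% of 11762 genes. All 121 somatic-marker cells (median 8056 UMIs) held 6 of the 137 UMIs of Pcgf2 and 149 of the 830 of Pcgf6.

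Rnf2, the more abundant RING subunit gene, was at 59.0, 66.5 and 49.7 CPM in Plzf +/+ and at 77.7 and 109 CPM in Plzf lu/lu, without overlap. The log2 fold change of 0.60 (SE 0.22) had an edgeR adjusted p of 0.277 and passed under no alternative. The somatic-marker cells held 108 of its 607 UMIs, and the part of somatic-marker cells in this difference was not tested apart from the set above, where it was 0.46 (SE 0.20). Its relative Ring1 was at 12.2, 7.39 and 6.66 CPM in Plzf +/+ and at 7.57 and 4.02 CPM in Plzf lu/lu, with a log2 fold change of -0.34 (SE 0.51). It was at -1.12 (SE 1.13) without Plzf lu/lu plate 3, at -1.14 (SE 0.72) in Gfra1 cells and at 0.02 without Plzf +/+ plate 1.

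The other members overlapped between the genotypes. Ezh2, the PRC2 methyltransferase typical of dividing cells, was at 88.0, 102 and 77.4 CPM in Plzf +/+ and at 89.7 and 109 CPM in Plzf lu/lu, with a log2 fold change of 0.11 (SE 0.19). Ezh1, the other methyltransferase gene, differed by -0.07 (SE 0.22), and the core genes Eed and Suz12 by -0.01 (SE 0.17) and -0.0040 (SE 0.24). The value of Suz12 depended on the cells and libraries used: it was at -0.76 (SE 0.33; edgeR adjusted p = 0.232) in cells thinned to 2000 UMIs, and at 0.39 without Plzf lu/lu plate 3 and -0.27 without Plzf lu/lu plate 4. Cbx2, the reader, differed by 0.16 (SE 0.35). The edgeR adjusted p-values of these 5 genes ran from 0.962 to 0.999, and none of them passed under an alternative.

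**Figure D3:**
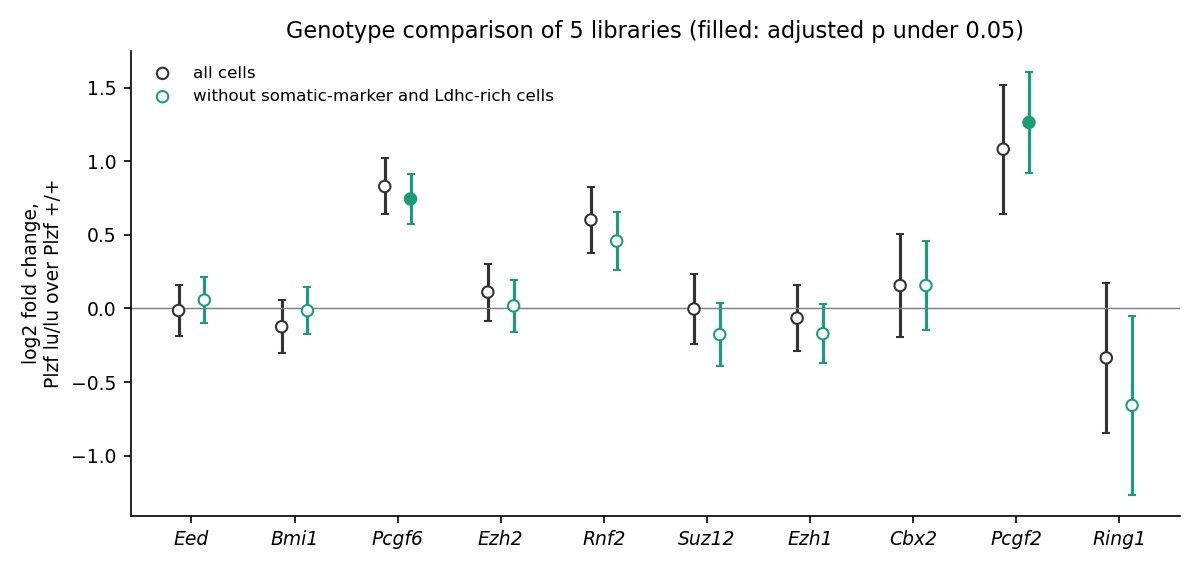
log2 fold changes of the 10 genes, Plzf lu/lu over Plzf +/+, with standard errors (bars), from sums over all cells (black) and without somatic-marker and Ldhc-rich cells (green); filled points have an adjusted p under 0.05. No point is filled for all cells, and Pcgf6 and Pcgf2 are filled in the other set.

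The cells of each library were then split by genes outside the set, and the classes compared with the library as a block. A UMI of Gfra1, the GDNF receptor subunit of undifferentiated spermatogonia, was present in 700 cells, at 58.1% to 66.0% of Plzf +/+ cells by library but 37.9% and 39.5% of Plzf lu/lu cells. Of the 9 members tested (Ring1 was too low), 0 passed the edgeR test and 0 had an unadjusted p under 0.05, while 0.189% of 10603 genes passed. Bmi1 was at 103, 118 and 133 CPM in the Gfra1 cells of Plzf +/+ and at 117, 114 and 92.0 CPM in the other cells. In Plzf lu/lu it was at 104 and 80.2 CPM in the Gfra1 cells and at 116 and 82.7 CPM in the others. Bmi1 was thus higher in Gfra1 cells in 2 of 5 libraries, with a log2 fold change of 0.04 (SE 0.14).

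A UMI of Kit or Stra8, genes of differentiating spermatogonia, was present in 327 cells. Again 0 of the 9 members passed the edgeR test, which 1.27% of 10267 genes passed, and 1 had an unadjusted p under 0.05. This was Ezh2, with higher values in the Kit or Stra8 cells of 5 of 5 libraries and a log2 fold change of 0.33 (SE 0.12; edgeR adjusted p = 0.257). Kit or Stra8 cells were deeper than the rest (median 7762 against 5425 UMIs), and among cells of 3000 to 15000 UMIs the value was 0.18 (SE 0.15). Bmi1 was at -0.13 (SE 0.12) and Pcgf6 at -0.27 (SE 0.15).

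Ezh2 was the member that differed in dividing cells. A UMI of Mki67 or Top2a, genes of the cell cycle, was present in 671 cells. In these cells Ezh2 was at 116, 134 and 97.9 CPM in Plzf +/+ and at 97.4 and 147 CPM in Plzf lu/lu. In the other cells it was at 46.3, 61.3 and 48.3 CPM in Plzf +/+ and at 71.2 and 27.1 CPM in Plzf lu/lu. It was higher in 5 of 5 libraries, and the classes did not overlap. The means were 118 ± 21.9 CPM and 50.8 ± 16.7 CPM (SD, n = 5), a log2 fold change of 1.04 (SE 0.18; edgeR adjusted p = 0.00693). It was the only 1 of the 9 members tested that passed, while 5.85% of 9695 genes passed as higher. The edgeR test of the interaction with genotype gave -0.42 (SE 0.39; adjusted p = 0.935).

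Cells with Mki67 or Top2a were deeper than the rest (median 7494 against 4701.5 UMIs). Among cells of 3000 to 15000 UMIs Ezh2 was higher by 0.82 (SE 0.20; edgeR adjusted p = 0.0135), and without somatic-marker cells by 0.90 (SE 0.18; adjusted p = 0.000873). The call ended with each cell thinned to 2000 UMIs before the split (0.67, edgeR adjusted p = 0.0623) and without the Plzf +/+ library of plate 2 (0.99, adjusted p = 0.0831). In the thinned cells the core gene Suz12 passed (0.80, edgeR adjusted p = 0.0400), while with all UMIs it was at 0.17 (SE 0.18). The other 7 members tested lay between -0.24 (Ezh1) and 0.26 (Cbx2), each with an edgeR adjusted p of 0.470 or more.

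**Figure D4:**
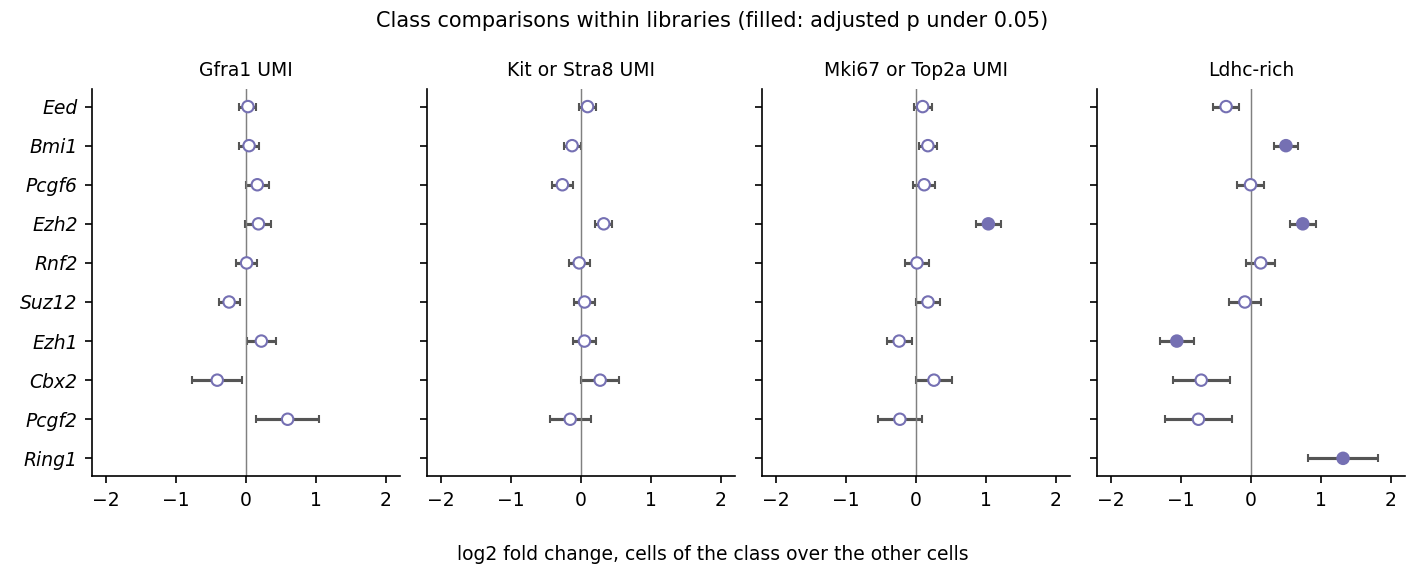
log2 fold changes of the 10 genes (rows) between the cells of a class and the other cells of the same libraries, with standard errors, for 4 classes (panels); filled points have an adjusted p under 0.05, and Ring1 was too low to test in 3 of the 4. Ezh2 is filled in the Mki67 or Top2a panel, and Ezh2, Bmi1, Ring1 and Ezh1 in the Ldhc-rich panel.

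E2F transcription factors are known to drive genes of dividing cells from short GC-rich sites near the start of transcription. The promoters of 9 of the 10 genes were matched by symbol in RefSeq (build GRCm38.p6, 250 bases before to 50 after the 1 start listed per gene), and that of Cbx2 was not. They were searched on both strands for TTTCCCGC, TTTCGCGC, TTTGGCGC and TTTGCCGC. A match was found in 2 of the 9, Ezh2 and Suz12, and in 2.26% of 32851 promoters of the same length. The sequences of Ezh2 and Suz12 are shown for their matches, Ezh1 because it encodes the alternative enzyme to EZH2, and Bmi1 because it leads the set. Each is printed 5′ to 3′ on the strand of its gene, from 250 bases before the listed start through the first 12 bases after it, with matched letters in capitals. They lie at chr6:47595019-47595280 (Ezh2, minus strand), chr11:79992856-79993117 (Suz12, plus strand), chr11:101226452-101226713 (Ezh1, minus strand) and chr2:18676768-18677029 (Bmi1, plus strand).
Ezh2: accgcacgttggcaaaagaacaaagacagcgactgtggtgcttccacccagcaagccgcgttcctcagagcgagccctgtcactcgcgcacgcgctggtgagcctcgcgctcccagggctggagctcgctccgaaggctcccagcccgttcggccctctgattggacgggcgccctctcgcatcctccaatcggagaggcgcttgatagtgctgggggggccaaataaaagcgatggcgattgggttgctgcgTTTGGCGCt
Suz12: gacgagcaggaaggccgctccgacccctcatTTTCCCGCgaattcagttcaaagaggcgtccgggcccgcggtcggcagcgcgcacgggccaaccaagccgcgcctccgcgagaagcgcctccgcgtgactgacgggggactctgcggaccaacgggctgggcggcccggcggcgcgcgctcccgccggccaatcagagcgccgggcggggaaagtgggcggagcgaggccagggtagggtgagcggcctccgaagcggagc
Ezh1: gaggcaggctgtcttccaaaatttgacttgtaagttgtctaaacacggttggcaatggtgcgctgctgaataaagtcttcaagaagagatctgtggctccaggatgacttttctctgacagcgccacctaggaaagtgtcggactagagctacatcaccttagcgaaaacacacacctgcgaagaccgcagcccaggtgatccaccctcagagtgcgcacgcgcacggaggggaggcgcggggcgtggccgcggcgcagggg
Bmi1: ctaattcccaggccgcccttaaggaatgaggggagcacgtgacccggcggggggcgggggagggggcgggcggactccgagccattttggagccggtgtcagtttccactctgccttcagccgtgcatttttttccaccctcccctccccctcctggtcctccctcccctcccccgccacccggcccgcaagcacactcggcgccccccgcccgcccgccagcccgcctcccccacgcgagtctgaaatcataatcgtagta

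The listed starts of Ezh2, Pcgf6 and Pcgf2 lay 240, 33 and 2786 bases inside the gene as RefSeq bounds it, so most of the Ezh2 window and all of the Pcgf2 window are gene sequence, while the other 6 starts were at the outer end of the gene. The match in Ezh2 begins 3 bases after its listed start, 243 bases into the gene, and that in Suz12 219 bases before its start. A match describes letters and is not a binding site. The 9 windows held 10 (Pcgf2, inside the gene) to 41 (Suz12) CpG dinucleotides in 300 bases, against a median of 7 over all promoters.

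Cells rich in Ldhc, a lactate dehydrogenase gene of meiotic and haploid germ cells, were the class in which most members passed. A cell was called Ldhc-rich at 2 or more Ldhc UMIs that made up at least 1 in 1000 of its UMIs, which held for 155 cells. The Plzf lu/lu library of plate 4 had 3 such cells and was left out, so 4 libraries entered. Of the 10 members, 3 passed as higher and 1 as lower in the edgeR test, while 31.7% of 11304 genes passed as higher and 22.5% as lower. The count of members is therefore near or below that of all genes, and it includes Ring1, whose call is a description only.

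With all cells used, the methyltransferase genes of PRC2 moved in opposite directions, though neither call held in every restricted set of cells given below. Ezh1 was at 30.9, 19.8 and 40.5 CPM in the Ldhc-rich cells of Plzf +/+ plates 1, 2 and 4 and at 28.7 CPM in those of Plzf lu/lu plate 3, on 4, 13, 20 and 12 UMIs. In the other cells it was at 56.5, 56.2, 70.3 and 58.0 CPM. All 4 libraries were lower and the classes did not overlap, with a log2 fold change of -1.06 (SE 0.25; edgeR adjusted p = 0.000599). Ezh2 was at 77.3, 160, 105 and 134 CPM in the Ldhc-rich cells and at 79.2, 77.3, 63.3 and 76.5 CPM in the others, in the same order of libraries. It was higher in 3 of 4 libraries, with a log2 fold change of 0.74 (SE 0.18; edgeR adjusted p = 0.00115). For each UMI of Ezh1 there were 2.5, 8.08, 2.6 and 4.67 UMIs of Ezh2 in the Ldhc-rich cells and 1.40, 1.38, 0.900 and 1.32 in the others, without overlap.

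Bmi1 was at 131, 136 and 156 CPM in the Ldhc-rich cells of Plzf +/+ and at 124 CPM in those of Plzf lu/lu, against 92.5, 95.7, 94.6 and 104 CPM in the other cells. It was higher in 4 of 4 libraries, with a log2 fold change of 0.50 (SE 0.17; edgeR adjusted p = 0.0131). Ring1 was higher by 1.32 (SE 0.50; edgeR adjusted p = 0.0272), on 3, 10, 3 and 8 UMIs in the Ldhc-rich cells. It was at 23.2, 15.2, 6.07 and 19.1 CPM there and at 10.2, 4.32, 6.39 and 4.98 CPM in the other cells, higher in 3 of 4 libraries. Ring1 was too low to test in the other classes and may have reached the count filter through the Ldhc-rich cells, so its call is a description. Pcgf2 (-0.75, SE 0.48) and Cbx2 (-0.71, SE 0.41) had lower values in 4 of 4 libraries and did not pass. The Ldhc-rich cells held 1, 4, 8 and 2 UMIs of Pcgf2. Without Plzf lu/lu plate 3 the values were -0.32 for Pcgf2 and -0.40 for Cbx2, without Plzf +/+ plate 4 that of Pcgf2 was -1.21, and without somatic-marker cells they were -0.17 and -0.34. Eed was at -0.36 (SE 0.18) and did not pass, but it passed as lower without a filter on low counts (-0.59, edgeR adjusted p = 0.0127) and without Plzf +/+ plate 1 (-0.47, adjusted p = 0.0427). Suz12 was at -0.09, Pcgf6 at -0.0069 and Rnf2 at 0.14. In the edgeR test of the interaction with genotype 0 of the 10 members passed, and 0 had an unadjusted p under 0.05.

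**Figure D5:**
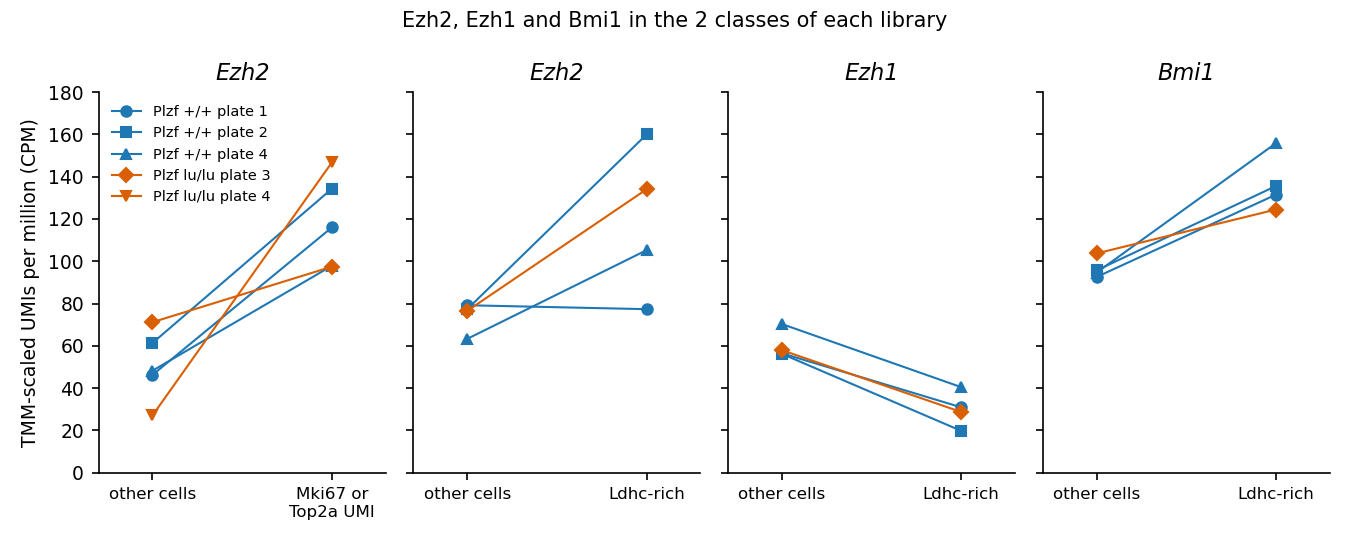
TMM-scaled CPM of Ezh2, Ezh1 and Bmi1 in both classes of each library, joined by a line; 1 panel splits cells by a UMI of Mki67 or Top2a (5 libraries) and 3 panels by Ldhc (4 libraries). Ezh1 is lower and Bmi1 higher in the Ldhc-rich cells of all 4 libraries, and Ezh2 is not higher in those of Plzf +/+ plate 1.

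Ldhc-rich cells were deeper than the rest (median 8135 against 5794 UMIs), and 72 of the 155 were somatic-marker cells, 28 of them among the 39 of Plzf lu/lu plate 3. The Sertoli list summed to 467 to 2390 CPM in Ldhc-rich cells and to 396 to 686 CPM in the others. Without somatic-marker cells, which left 9, 34, 28 and 11 Ldhc-rich cells, Ezh2 was the only 1 of the 9 members tested that passed (0.59, SE 0.23; edgeR adjusted p = 0.0259). Ring1 was too low to test there, and the somatic-marker cells held 22 of its 77 UMIs. In these cells Ezh1 was at -0.68 (SE 0.31; edgeR adjusted p = 0.0679) and Bmi1 at 0.46 (SE 0.21; adjusted p = 0.0614), while 25.6% of 10524 genes passed as higher and 16.1% as lower. Among cells of 3000 to 15000 UMIs 8 members could be tested, without Ring1 and Pcgf2, and of these only Ezh1 passed (-1.01, SE 0.36; edgeR adjusted p = 0.0362), as did 8.64% of 9756 genes as lower. Ezh2 was at 0.08 and Bmi1 at 0.10. Without the Plzf +/+ library of plate 2 the calls of Ezh2 (0.54, edgeR adjusted p = 0.0683), Bmi1 (0.45, adjusted p = 0.0987) and Ring1 (1.06, adjusted p = 0.192) ended, and without that of plate 1 Ring1 could not be tested. Without that of plate 4 the call of Bmi1 ended (0.42, edgeR adjusted p = 0.125), and without Plzf lu/lu plate 3 that of Ring1 (1.04, adjusted p = 0.114). Without a filter on low counts the calls of Bmi1 (0.26, edgeR adjusted p = 0.337) and Ring1 (1.06, adjusted p = 0.0996) ended. Wherever they were tested, Ezh1 stayed below 0, and Ezh2 and Bmi1 above 0.

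Outside the Ldhc classes few of the other genes of the Polycomb system passed, and few of all genes did. The share of all genes was 0.816% by genotype, 0.189% for Gfra1, 1.27% for Kit or Stra8, and 5.85% as higher for Mki67 or Top2a. In the edgeR genotype test 0 of 22 genes of PRC1, 0 of 7 of PRC2, 0 of 4 of the PR-DUB complex, which removes the mark of PRC1, and 0 of the demethylase genes Kdm6a and Kdm6b passed. The most abundant were the PRC2 partner Mtf2, the germline PRC1 gene Scml2, the histone chaperone genes Rbbp7 and Rbbp4, and Pcgf5, each above all 10 members in mean CPM. Mtf2 was at 472, 387 and 389 CPM in Plzf +/+ and at 425 and 463 CPM in Plzf lu/lu, which overlapped. Pcgf5 was at 295, 272 and 227 CPM in Plzf +/+ and at 203 and 225 CPM in Plzf lu/lu, without overlap, with a log2 fold change of -0.32 (SE 0.16; edgeR adjusted p = 0.446). In the Kit or Stra8 cells the PRC1 gene Scmh1 was lower, with a log2 fold change of -0.77 (SE 0.16; edgeR adjusted p = 0.0254).

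In Ldhc-rich cells 8 of 20 PRC1 genes passed as lower and 1 as higher, and 3 of 6 PRC2 genes as lower and 1 as higher, while 22.5% of all genes passed as lower and 31.7% as higher. Without the somatic-marker cells, 72 of the 155, 7 of 20 PRC1 genes passed as lower and 0 as higher in edgeR, and 3 of 6 PRC2 genes as lower and 1 as higher, while 16.1% of all genes passed as lower and 25.6% as higher. By adjusted p over all the cells the leading genes were all lower: Scml2 (-0.96, edgeR adjusted p = 2.57e-06), Rbbp7 (-0.79, adjusted p = 1.62e-05), Mtf2 (-0.63, adjusted p = 0.000242) and Pcgf5 (-0.64, adjusted p = 0.00052). The variant PRC1 gene Mga (-0.62) and the PRC2 partner Jarid2 (-0.75) followed, both with an edgeR adjusted p of 0.00118. The PRC1 and PRC2 lists leave out the 10 members, of which Ezh2, Bmi1 and Ring1 passed as higher and Ezh1 as lower. Over the members the median log2 fold change was -0.05. The median was -0.63 over the listed PRC1 genes and -0.53 over the listed PRC2 genes, against -0.08 over all genes. Without somatic-marker cells these medians were -0.49, -0.59 and -0.15, with Scml2 at -0.83 and Rbbp7 at -0.84.

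Of the listed genes that Polycomb complexes are known to hold silent, none that could be tested passed in the genotype comparison. Hoxb6, too low for that test, was called in the fit without a filter on low counts and is described under other observations. Cdkn2a, the cell cycle inhibitor locus repressed by BMI1, was at 9.83, 5.34 and 9.23 CPM in Plzf +/+, at 19.5 CPM in Plzf lu/lu plate 3 and at 0 in plate 4, and differed by 0.86 (SE 0.64; edgeR adjusted p = 0.644). Its neighbour Cdkn2b was at 7.95, 14.4 and 16.4 CPM in Plzf +/+ and at 18.7 and 24.1 CPM in Plzf lu/lu, without overlap (0.64, SE 0.41; edgeR adjusted p = 0.567). Of 10 germ cell genes that the PCGF6 complex holds silent in embryonic stem cells, 0 passed in edgeR and 1 had an unadjusted p under 0.05, Sycp3 at 0.42 (SE 0.14; edgeR adjusted p = 0.217), named after its value was seen. The most abundant, Mael, Ddx4 and Smc1b, were at 392 to 517 CPM in every library and differed by 0.05, 0.12 and -0.15. The 31 Hox genes listed had 16 to 223 UMIs in all in a library. Only 7 were high enough to test, of which 0 passed in edgeR and 0 had an unadjusted p under 0.05. Hoxa4, the most abundant, was at 5.61, 22.2 and 20.5 CPM in Plzf +/+ and at 12.4 and 8.04 CPM in Plzf lu/lu, and differed by -0.49 (SE 0.64). Hoxb7 and Hoxd8 differed by 0.51 (SE 0.36) and 0.19 (SE 0.95), and 4 of the 7 values were positive.

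Over single cells Bmi1 resembled no other gene closely. Among 1167 cells of at least 2000 UMIs, with each library centred, the highest Pearson correlations of its normalized level over 9409 genes were with Akap4 (0.14), Cdc25a (0.14), Agpat2 (0.14), Atp11b (0.14) and the PRC1 gene Phc1 (0.13). Over the 36 pairs of members tried, the highest was that of Bmi1 and Ezh2 (0.09) and the lowest that of Rnf2 and Suz12 (-0.04). These points share libraries and depth, and in counts this sparse the values are only a description.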

How the data were processed

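RNA was counted in single EOMES-tdTOMATO+ cells sorted into 384-well plates. The authors deposited UMI counts per gene and cell, raw and not normalized, 1 table per genotype. The submitters' processing notes name bcl2fastq 2.18.0.12, Picard 2.9.3, STAR 2.5.4a and the build GRCm38. Reads come from transcript 3′ ends and the tables do not state strand, so overlapping genes are uncertain. The list of wells was used only to place the cells of plate 4. The study's methods treated cells as replicates in edgeR; here UMIs were summed per library, since cells of a library share their source.

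Sums were tested with edgeR 4.0.16 in R 4.3.3 (filterByExpr, TMM, robust quasi-likelihood, Benjamini-Hochberg over all genes tested, threshold 0.05). Standard errors are the absolute log2 fold change over the square root of F. edgeR bounds p by the Poisson limit, so an SE and its p need not match. DESeq2 1.42.0 was an alternative. Classes needed 5 cells per library and kept the library as a block. A somatic-marker cell carried at least 3 genes of 1 of 7 somatic lists. Thinning used seed 1. No doublet caller was run; cells of over 4 times the median UMIs of their genotype were left out as an alternative. Class comparisons without somatic-marker cells and the genotype comparison without the plate 4 cells outside their labelled wells, the deepest cells without somatic-marker cells and the Hoxb6 bound without each Plzf +/+ library were added after seeing the data.

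The members and gene lists were chosen with earlier results of these data known. Named were the members, other Polycomb genes past the threshold (at most 6 per comparison) or among the 5 of highest CPM, target genes past the threshold by genotype or among the 3 of highest CPM of their list, the class markers, Zbtb16, and the 5 genes most correlated with Bmi1. Auts2, Epop and Ezhip were not analysed here, nor were the markers Cyp11a1, Cyp17a1, Hsd3b1, Lyz2 and C1qa. Summed markers of Leydig cells, macrophages and erythroid cells stayed at or under 6.13 CPM in every library, of myoid cells at or under 14.2, of endothelial cells at or under 22.5 and of T and NK cells at or under 42.2. Simulated data for the genotype comparison of 13348 genes gave back 130 of 193 changed genes, 13 of 65 at a log2 fold change of 1 and 55 of 63 at 2. Libraries held a median of 5061 to 6364.5 UMIs per cell.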

Additional observations from a re-analysis of the deposited data

How the results depend on the processing

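The genotype comparison rests on few libraries. It called 112 genes, but 1387 without Plzf +/+ plate 1, 6 without Plzf lu/lu plate 4, and 1 without Plzf +/+ plate 2, Plzf +/+ plate 4 or Plzf lu/lu plate 3, a range of 1 to 1387. It called 583 without the filter on low counts, 1772 without somatic-marker and Ldhc-rich cells, 11 in Gfra1 cells, 366 in cells thinned to 2000 UMIs and 671 without cells over 4 times the median UMIs. Of the members it called 0, but 1 without the filter, 2 without somatic-marker and Ldhc-rich cells, 1 without the deepest cells and 0 to 1 with a library left out (1 without Plzf +/+ plate 1). The causes were not tested.

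In the Gfra1 classes 20 genes were called, but 264 without the filter, 682 in cells of 3000 to 15000 UMIs, 230 in thinned cells and 3 to 128 with a library left out (3 without Plzf +/+ plate 1, 4 without Plzf lu/lu plate 3, 33 without Plzf lu/lu plate 4 and 128 without Plzf +/+ plate 2). In the Kit or Stra8 classes 130 were called, 420 without the filter and 22 to 117 with a library left out (22, 33 and 60 without Plzf +/+ plates 4, 1 and 2). In the Mki67 or Top2a classes 689 were called, 1671 without the filter, 291 in thinned cells and 94 to 900 with a library left out (94 and 397 without Plzf +/+ plates 2 and 4, 373 without Plzf lu/lu plate 3), and members called ranged from 0 to 1. In the Ldhc-rich classes 6132 were called, 2551 in cells of 3000 to 15000 UMIs and 687 in thinned cells. Members called there were 4 of 10, but 1 of 8 at 3000 to 15000 UMIs, 1 of 9 without somatic-marker cells, 0 in thinned cells, where only 2 could be tested, and 1 to 4 with a library left out (1 without Plzf +/+ plate 2). Without the library as a replicate block, 0 genes were called in the Gfra1 classes, 0 in the Kit or Stra8 classes and 120 in the Mki67 or Top2a classes. No paired analysis was possible between genotypes because they share only plate 4.

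Of 478 member log2 fold changes under alternatives, 377 kept their direction and side of the threshold, 8 gained and 14 lost a call, and 79 that were not called moved by more than their SE or changed sign (51 changed sign). No call reversed. Shares of cells with a UMI fell with thinning for every member, and 38 cells in Plzf lu/lu of plate 4 limit all genotype values.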

Other observations

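Hoxb6 was singled out after its values were seen, and it was too low for the genotype test. Plzf +/+ plates 1, 2 and 4 held 24, 9 and 8 of its UMIs, from 29 cells, and both Plzf lu/lu libraries held 0. Its 6.30 CPM over Plzf +/+ were 6.01 times the limit that a count of 0 allows in Plzf lu/lu (3 UMIs over the group, 1.05 CPM, here UMIs per 1000000 UMIs without TMM scaling). This bound pools the libraries of each genotype and leaves out the spread between them. Without plate 1 the Plzf +/+ level was 3.88 CPM, 3.71 times the limit, and without either of the others the bound was above 6.01-fold. In the fit without a filter on low counts it was the only 1 of the 31 Hox genes called (edgeR adjusted p = 0.00331), where 583 of 25737 genes were called.

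Only 3 of the 31 Hox genes were high enough to test between the Ldhc-rich cells and the others. Hoxa4 was at 57.4 to 80.7 CPM in the Ldhc-rich cells of the 4 libraries and at 0.541 to 3.17 CPM in the other cells, with a log2 fold change of 5.48 (SE 0.42). Hoxd8 was at 15.5 to 62.4 CPM against 0.445 to 1.92 CPM, with 4.91 (SE 0.47). With so little in the other cells, both reached the count filter through the Ldhc-rich cells, so the values are a description. Hoxb7 was at -0.72 (SE 0.52). Of the 10 germ cell genes tied to the PCGF6 complex, 5 passed as higher and 4 as lower in the same cells, as did 31.7% and 22.5% of all genes, with Mael at 1.10 (SE 0.13; edgeR adjusted p = 2.54e-08). Without somatic-marker cells 3 of the 10 passed as higher and 4 as lower, as did 25.6% and 16.1% of all genes, and Hoxa4 was at 5.63 and Hoxd8 at 4.52.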
